A study of Mus musculus with 12 samples.

Results

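The genes described here encode the nuclear subunits of oxidative phosphorylation. They are the entries of the deposited table whose names begin with *Nduf* followed by a, b, c, s or v and a number, with *Uqcr*, with *Cox4* to *Cox8* or with *Atp5*, or that read *Sdha* to *Sdhd*. Of 85 matching names, 1 pseudogene (*Ndufb1-ps*) was left out, so that 84 of the 32288 genes in the table were taken. They comprised 35 genes of complex I, 4 of complex II, 8 of complex III, 20 of complex IV, including *Ndufa4* and *Ndufa4l2*, and 17 of complex V. The pattern does not take *Cyc1*, *Cycs*, *Ndufab1* or the genes of the mitochondrial DNA (mtDNA), which were examined separately.

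Bulk RNA-seq was performed on mGFP+ cells sorted from the metaphysis of the distal femur and proximal tibia of tamoxifen-treated mice. The juvenile (3 weeks of age, 4 libraries) and adult (8 weeks, 4 libraries) *Osx*+ osteoblasts came from *Osx-CreERT2*; *mTmG* mice, in which the *Osx* promoter drives an inducible Cre and recombined cells turn from tdTomato to membrane GFP, and each of these libraries pooled 2 males. *c-Myc*-induced osteoblasts (2 libraries) additionally carried *LSL-tTA* and *Col1a1::TetO–c-Myc*, and *c-Myc* + *R172H* osteoblasts (2 libraries) also carried *Trp53-LSL-R172H*, an allele for mutant p53. The induced cells were taken 7 days after tamoxifen given on 2 days, whereas the uninduced cells were taken 2 days after tamoxifen given on 3 days. The sample protocol names both sexes for the induced mice, while another statement of the study gives males only for RNA-seq. The titles give 3 weeks for the induced groups, but the protocol calls these mice 5-week-old and trims the shaft 5 mm from the growth plate in place of 2 mm. Mice with the tetracycline-controlled transgenes, or pregnant females, were given doxycycline or tetracycline in drinking water until a set time before analysis. The paper states this treatment for the inducible mice only. In any comparison with juvenile cells, induction therefore cannot be told apart from age, this treatment, tamoxifen schedule and trimming. The same holds for sex if females were used. The study gives these features alike for the *c-Myc* and *c-Myc* + *R172H* groups. The labels do not say whether the 2 libraries of an induced group came from separate mice, so p-values measure the spread between these libraries.

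Oxidative phosphorylation is carried out by protein complexes in the inner mitochondrial membrane. Complexes I and II pass electrons from NADH and succinate to ubiquinone, complex III passes them to cytochrome *c* and complex IV to oxygen. The proton gradient built by complexes I, III and IV drives complex V, the ATP synthase. Complexes I, III, IV and V combine nuclear-encoded subunits with subunits encoded by mtDNA, whereas complex II is wholly nuclear-encoded. Complexes I, III and IV have core subunits that hold the redox centres and supernumerary subunits around them, and some subunits exist as alternative copies used in particular tissues or under low oxygen. Osteoblasts are known to combine glycolysis with oxidative phosphorylation while they make matrix.

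Library totals ranged from 9066154 to 15684412 counts. *Col1a1*, *Col1a2* and *Gm26917* together took 57.1% to 65.3% of the counts in juvenile, 42.4% to 56.1% in adult, 41.8% and 46.1% in *c-Myc* and 35.2% and 37.6% in *c-Myc* + *R172H* libraries, so levels are given as CPM with library sizes scaled by TMM factors over the 12 libraries. *Myc* itself was at 39.8 to 52.2 CPM in juvenile, 44.7 to 51.2 in adult, 624 and 657 in *c-Myc* and 639 and 747 in *c-Myc* + *R172H* libraries, as the labels have it. All 9 osteoblast markers were detected in every group, although all 9 fell with *c-Myc* induction. The 4 endothelial markers together reached at most 1.14 CPM in any library, and the muscle, haematopoietic and adipocyte markers at most 16.6, 9.25 and 14.5 CPM. Within these low values the haematopoietic markers summed to 0.274 to 1.49 CPM in juvenile, 3.95 to 9.25 in adult and 2.53 to 7.94 in induced libraries, and *Lyz2* was called lower in juvenile than in adult and in *c-Myc* cells. The osteoclast markers summed to 203 to 332 CPM in juvenile, 221 to 411 in adult and 52.2 to 104 in induced libraries, and of 3 tested *Ctsk* fell with *c-Myc*, and *Ctsk* and *Mmp9* were lower in *c-Myc* + *R172H* than in juvenile cells. The part of these cells in the levels of the subunit genes was not tested. Among the chondrocyte markers, summed CPM were 18335 to 35604 in juvenile, 43098 to 135220 in adult and 867 to 2109 in the induced libraries. In bulk samples, fewer cells of a type and less RNA per cell cannot be told apart.

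The summed level of the 84 members was alike in juvenile and adult osteoblasts and higher in the induced groups. It was 2410 ± 140 CPM in juvenile (mean ± SD, n = 4), 2421 ± 68.1 in adult (n = 4), 4050 ± 265 in *c-Myc* (n = 2) and 4242 ± 240 in *c-Myc* + *R172H* osteoblasts (n = 2). The highest of the 8 uninduced libraries reached 2523 CPM and the lowest of the 4 induced libraries stood at 3863 CPM. As a share of all raw counts, the members made up 0.152% to 0.217% in juvenile, 0.201% to 0.247% in adult, 0.495% and 0.592% in *c-Myc*, and 0.640% and 0.702% in *c-Myc* + *R172H* libraries. In this raw share the juvenile and adult ranges overlapped, and both lay below every induced library.

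Each complex showed the same order on this summed CPM scale. Complex I stood at 535 to 613 CPM in juvenile, 553 to 609 in adult, 811 and 886 in *c-Myc*, and 878 and 929 in *c-Myc* + *R172H* libraries. Complex II stood at 168 ± 3.97 CPM in juvenile and 167 ± 5.49 in adult osteoblasts (SD, n = 4 each), at 284 and 294 CPM in *c-Myc*, and at 292 and 327 CPM in *c-Myc* + *R172H* libraries. Complex III stood at 219 to 260, 207 to 253, 469 and 515, and 484 and 530 CPM. The juvenile and adult ranges overlapped in each of these complexes, and no induced library fell within them. For complex IV the values were 305 to 381, 358 to 433, 502 and 558, and 519 and 565 CPM. For complex V they were 980 to 1125, 1000 to 1077, 1797 and 1985, and 1900 and 2061 CPM. Complex V took the greatest part of the members' CPM in every group, at 44.5% ± 0.508 in juvenile (SD, n = 4), 43.3% ± 1.40 in adult, 46.7% ± 0.224 in *c-Myc* and 46.7% ± 0.0416 in *c-Myc* + *R172H* osteoblasts. The share of complex I was 23.9% ± 0.609 in juvenile and 21.0% ± 0.0750 in *c-Myc* osteoblasts, while that of complex III was 9.97% ± 0.457 and 12.1% ± 0.0214.

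**Figure D1:**
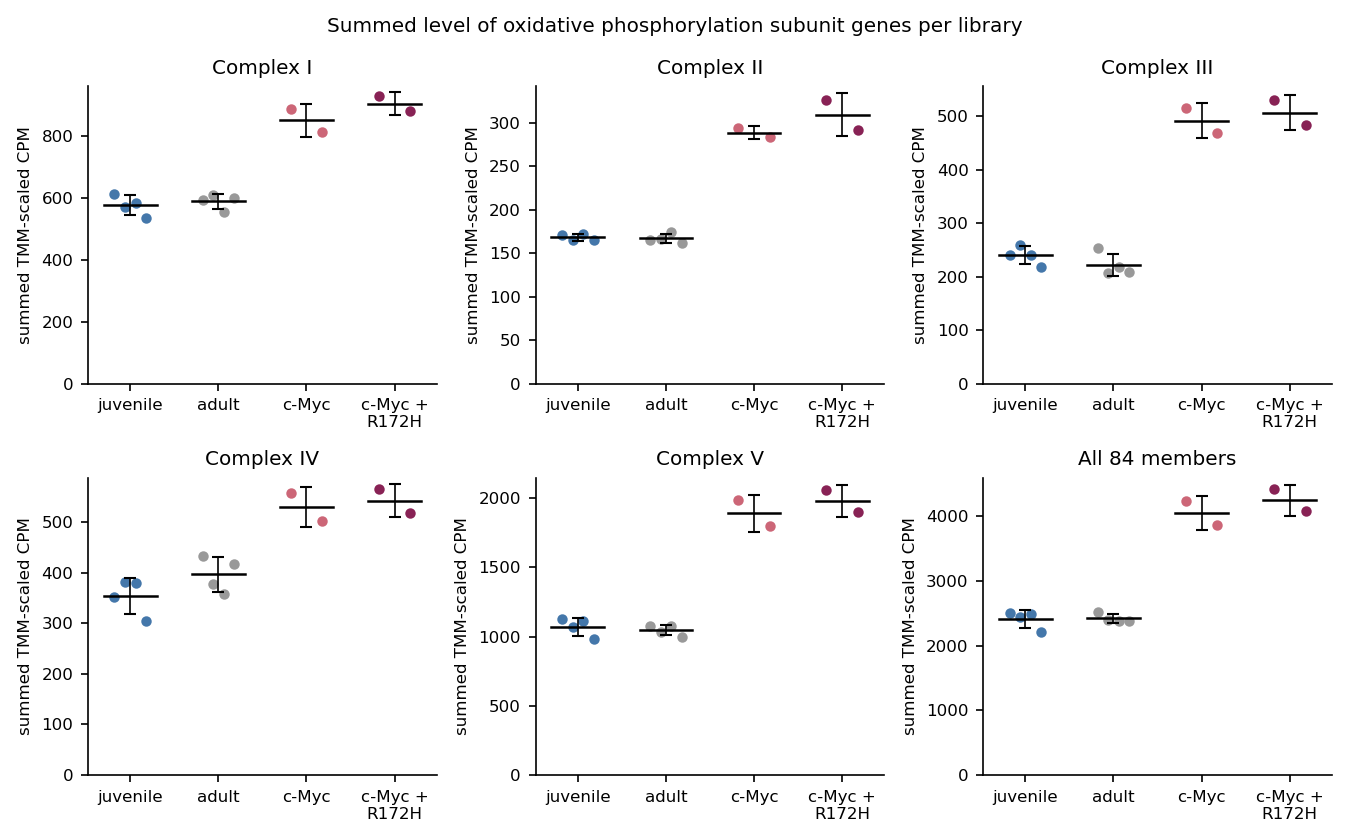
Summed TMM-scaled CPM of the members of each complex in the 12 libraries; points are libraries, lines the mean and bars the SD of 4 juvenile, 4 adult, 2 *c-Myc* and 2 *c-Myc* + *R172H* libraries. In complex II the induced libraries lie between 284 and 327 CPM and the others between 162 and 175 CPM.

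Per kilobase of merged exon, the order of single members was led by the catalytic head of the ATP synthase. In juvenile osteoblasts the highest levels were those of *Atp5a1* at 96.6 CPM per kb and *Atp5b* at 93.9 CPM per kb, which encode its alpha and beta subunits. *Cox4i1*, the ubiquitous copy of complex IV subunit 4, followed at 73.8 CPM per kb, and then *Cox8a*, *Cox6a1* and *Cox6b1* at 52.9, 50.5 and 48.5 CPM per kb. In *c-Myc* osteoblasts *Atp5b* stood first at 186 CPM per kb and *Atp5a1* next at 155 CPM per kb. *Cox8a* and *Cox4i1*, at 96.3 and 95.8 CPM per kb, were again among the highest. These are group means. Merged exons take in every annotated transcript of a gene, so levels and shares per kb also depend on the annotation. The libraries of *Cox8a*, *Cox6a1* and *Cox6b1* in juvenile and those of *Cox8a* and *Cox4i1* in *c-Myc* osteoblasts overlapped, whereas *Cox4i1* lay above *Cox8a* in every juvenile library.

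With *c-Myc* induction, subunits of all complexes rose together relative to juvenile cells. Of the 79 members that passed the filter on low counts, 52 were higher and 2 lower in *c-Myc* osteoblasts (edgeR quasi-likelihood F test, Benjamini-Hochberg adjusted p below 0.05 over 12588 genes), and 25 were not called. By the same rule, 28.4% of all tested genes were called higher and 25.0% lower in this comparison. The median log2 fold change (*c-Myc* over juvenile) was 0.66 over the members tested and 0.04 over all tested genes. Of the 52 members that rose, 18 had a log2 fold change of at least 1. Without 1 juvenile library, 53 to 56 members were called in either direction, beside 3535 to 3761 of all tested genes higher and 3014 to 3337 lower. Without *c-Myc* replicate 1 the median was 0.59 over the members and 0.008 over all tested genes, and without *c-Myc* replicate 2 these were 0.71 and 0.009. Members called lower numbered 4 without juvenile replicate 2 and 5 without juvenile replicate 4, beside 3014 of 12525 and 3337 of 12562 tested genes. With 1 *c-Myc* library left, it was assumed to vary like the other groups.

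**Figure D2:**
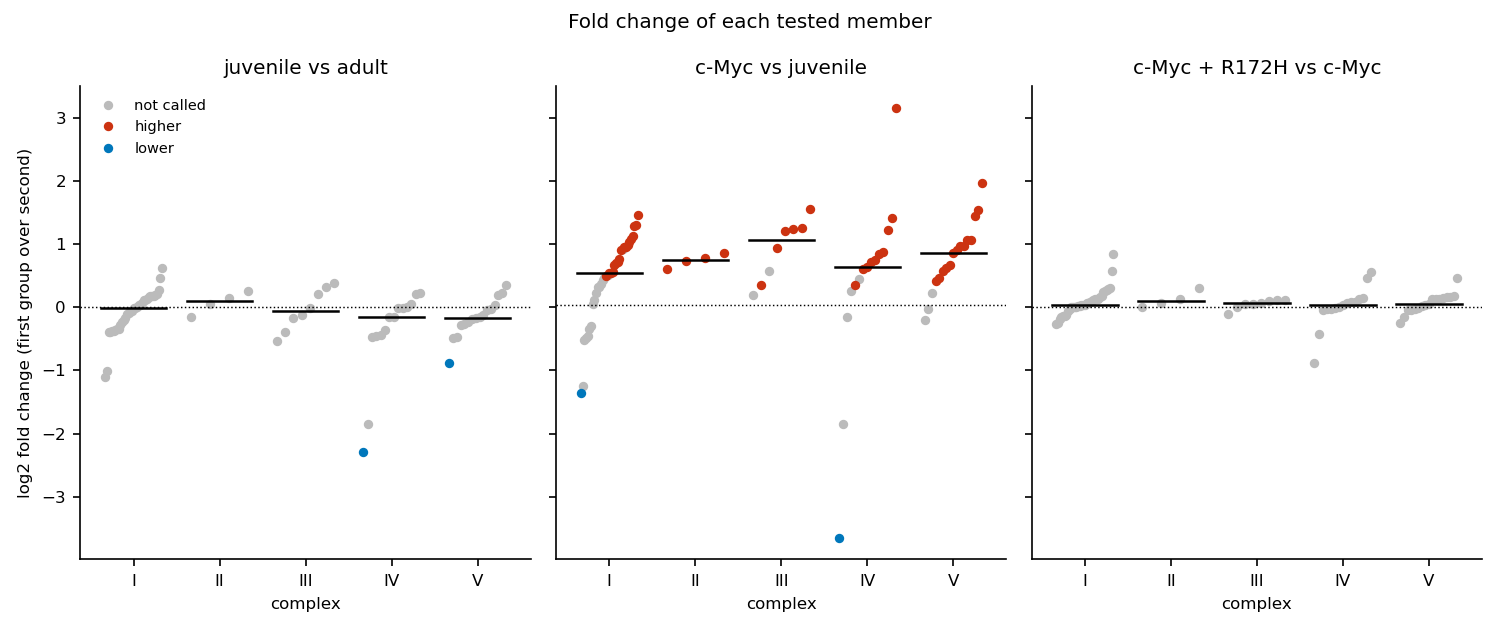
Log2 fold change of each tested member by complex, with 1 panel per comparison; red points are called higher and blue points lower at an adjusted p below 0.05, grey points are not called, short lines mark the median of each complex and the dotted line that of all tested genes. Most points of the comparison of *c-Myc* with juvenile osteoblasts lie above 0, with *Ndufa4l2* lowest at -3.64, and none is called between *c-Myc* + *R172H* and *c-Myc* osteoblasts.

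In complex I, the NADH dehydrogenase, 18 of 35 genes rose, 1 fell and 16 were not called, with a median log2 fold change of 0.54. Positions are GENCODE gene bounds in GRCm38. *Ndufs1*, which encodes the largest iron-sulfur subunit of the peripheral arm (chr1:63143596-63176833, minus strand), was at 38.3, 29.4, 30.7 and 32.4 CPM in the juvenile libraries and 87.5 and 76.4 CPM in the *c-Myc* libraries. These groups were far apart (log2 difference 1.30, SE 0.12, adjusted p = 2.4e-06). Exons of *Ndufs1* overlap those of *Eef1b2* and *Ino80dos* on the other strand, as exons of 27 members overlap some opposite-strand gene, and the strand setting of the counting is not given in the sources used here. Of the 7 core subunits 6 rose, and besides *Ndufs1* these included *Ndufs3* and *Ndufs7*, with log2 fold changes of 1.09 and 0.96. *Ndufs8*, an iron-sulfur subunit, was not called (log2 fold change 0.43, SE 0.26, adjusted p = 0.19). *Ndufv1*, which binds NADH and flavin, was at 43.0 to 44.4 CPM in the 4 juvenile and 67.3 and 63.9 CPM in the *c-Myc* libraries (log2 fold change 0.56, SE 0.10, adjusted p = 0.00035).

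Of the 28 supernumerary genes of complex I, 12 rose and 1 fell, with a median log2 fold change of 0.49, beside 0.72 for the 7 core genes. The difference was not tested. *Ndufa10*, a subunit of the membrane arm, rose from 22.5 to 47.0 CPM on average (log2 fold change 1.03, adjusted p = 0.00013), and *Ndufb6* from 5.31 to 11.7 CPM (1.12, adjusted p = 0.00069). Of the 86-base windows of *Ndufb6* transcripts, 26.1% also occur in *Smim27*, which overlaps it on the other strand. *Ndufb4* rose from 0.946 to 2.72 CPM (log2 fold change 1.46, adjusted p = 0.025). This call was lost in 6 alternatives, among them the omission of any 1 of the 4 induced libraries (adjusted p = 0.059 to 0.14), and 16.7% of the 86-base windows of its transcripts also occur in transcripts of other genes. *Ndufa1* was the supernumerary gene that fell. It encodes a small X-linked subunit at the junction of the arms (chrX:37187588-37191163, minus strand). Its levels were 6.76, 9.39, 13.8 and 12.2 CPM in juvenile and 4.2 and 4.08 CPM in *c-Myc* libraries, with no overlap (log2 fold change -1.35, SE 0.32, adjusted p = 0.0033). When libraries were scaled by their totals alone this call was lost (log2 fold change -0.50, adjusted p = 0.17). *Ndufv3*, *Ndufa13* and *Ndufs5* had log2 fold changes of -0.52, -0.48 and -1.24 and were not called (adjusted p = 0.061, 0.063 and 0.20).

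All 4 genes of complex II, succinate dehydrogenase, rose with *c-Myc*, with a median log2 fold change of 0.75. *Sdha*, the flavoprotein that oxidizes succinate (chr13:74322254-74350280, minus strand), was at 77.6, 68.2, 75.1 and 71.1 CPM in juvenile and 126 and 128 CPM in *c-Myc* libraries. The *c-Myc* libraries were well above the juvenile ones (log2 fold change 0.78, SE 0.09, adjusted p = 1.8e-05). The iron-sulfur subunit *Sdhb* rose by 0.61, and the membrane anchors *Sdhc* and *Sdhd* by 0.72 and 0.85 on the log2 scale (adjusted p = 0.0016, 0.00019 and 8.4e-05).

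Complex III, the cytochrome *bc*1 complex, had the highest median of the complexes, 1.07 on the log2 scale, with 6 of 8 genes higher. *Uqcr10*, a small subunit (chr11:4701973-4704342, minus strand), was at 12.1, 15.8, 15.0 and 11.8 CPM in juvenile and 41.7 and 40.2 CPM in *c-Myc* libraries. Even the lowest *c-Myc* value was above the highest juvenile value of 15.8 CPM, and *Uqcr10* rose by 1.56 on the log2 scale (SE 0.15, adjusted p = 2.9e-06). *Uqcrc1*, a core protein with homology to processing peptidases, was at 72.0, 87.9, 74.1 and 66.9 CPM in juvenile and 183 and 168 CPM in *c-Myc* libraries (log2 fold change 1.2, SE 0.10, adjusted p = 1.7e-06). The other core protein, *Uqcrc2*, rose by 0.94, and the Rieske iron-sulfur protein *Uqcrfs1* by 1.23 on the log2 scale. *Uqcrq* and *Uqcrb* were not called (log2 fold changes 0.20 and 0.57, adjusted p = 0.29 and 0.14). *Cyc1*, which encodes the cytochrome *c*1 subunit of this complex but does not match the pattern, was at 28.9 to 32.4 CPM in juvenile and 87.2 and 76.2 CPM in *c-Myc* libraries (log2 fold change 1.39).

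In complex IV, cytochrome *c* oxidase, 15 of 20 genes were tested, of which 10 rose and 1 fell, with a median log2 fold change of 0.64. *Cox7c*, a small membrane subunit (chr13:86044816-86046904, minus strand), was at 8.22, 15.0, 15.2 and 10.1 CPM in juvenile and 33.9 and 31.1 CPM in *c-Myc* libraries (log2 fold change 1.41, SE 0.21, adjusted p = 0.00011). Its transcripts share 18.5% of their 86-base windows with other genes. *Cox5a* rose from 23.0 ± 2.73 CPM (n = 4) to 54.8 ± 5.09 CPM (n = 2), a log2 fold change of 1.23. *Cox5b*, by contrast, was not called (log2 fold change 0.44, adjusted p = 0.078). *Cox4i1* rose by the small log2 fold change of 0.35, from 110 to 123 CPM in juvenile libraries to 141 and 156 CPM in *c-Myc* libraries (adjusted p = 0.0055, and 0.11 without *c-Myc* replicate 1). *Cox6a1* stayed between 30.4 and 46.7 CPM in all juvenile and *c-Myc* libraries (log2 fold change -0.16, adjusted p = 0.46).

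In complex V, the ATP synthase, 14 of 17 genes rose, with a median log2 fold change of 0.85. *Atp5b*, the catalytic beta subunit (chr10:128083273-128090391, plus strand), was at 430, 394, 401 and 366 CPM in juvenile and 829 and 752 CPM in *c-Myc* libraries. It rose by 0.97 on the log2 scale (SE 0.09, adjusted p = 1.5e-06), and *Atp5a1* and *Atp5c1*, the alpha and gamma subunits, by 0.66 and 0.97. *Atp5g3*, a copy of the proton-carrying subunit c (chr2:73908447-73911326, minus strand), was at 46.1, 48.2, 41.3 and 35.4 CPM in juvenile and 132 and 123 CPM in *c-Myc* libraries. The groups lay far apart (log2 fold change 1.55, SE 0.12, adjusted p = 4.3e-07). *Atp5l*, a subunit of the membrane part, rose from 0.658 to 2.73 CPM on few counts (log2 fold change 1.97, adjusted p = 0.024), a call lost in 5 alternatives, among them the omission of any 1 of the 4 induced libraries (adjusted p = 0.052 to 0.19). *Atp5e*, *Atp5h* and *Atp5j* had log2 fold changes of -0.20, 0.23 and -0.03 and were not called (adjusted p = 0.27, 0.13 and 0.93).

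Across complexes, a fixed list of 20 genes, called core here, was counted. It is wider than the redox-centre definition above, as it takes *Cox4i1*, *Cox5a*, *Cox5b*, *Uqcrc1*, *Uqcrc2* and genes of complexes II and V. Of these 20, 18 rose and none fell, with a median log2 fold change of 0.81 and a range from 0.35 for *Cox4i1* to 1.30 for *Ndufs1*, and *Ndufs8* and *Cox5b* were the 2 not called. Of the 59 tested members outside the core list, 34 rose and 2 fell, with a median of 0.58. Core genes have longer transcripts, with a median of 2208.5 exon bases against 1522.5 over all members and 4529 over all tested genes. When a trend of the fold change on exon length and mean expression was removed over all tested genes, the members' median was 0.37, with 0.24 for complex I, 0.53 for complex II, 0.66 for complex III, 0.16 for complex IV and 0.58 for complex V. Scaled by library totals alone, the members' median was 1.48 while that of all tested genes was 0.87, and 71 members were called higher and 1 lower, with 54.0% of all tested genes called higher and 8.87% lower under that scaling. With totals taken without *Col1a1*, *Col1a2* and *Gm26917*, these medians were 0.97 and 0.32, and 64 members were called higher and 2 lower, with 37.6% and 18.2% of all tested genes.

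**Figure D3:**
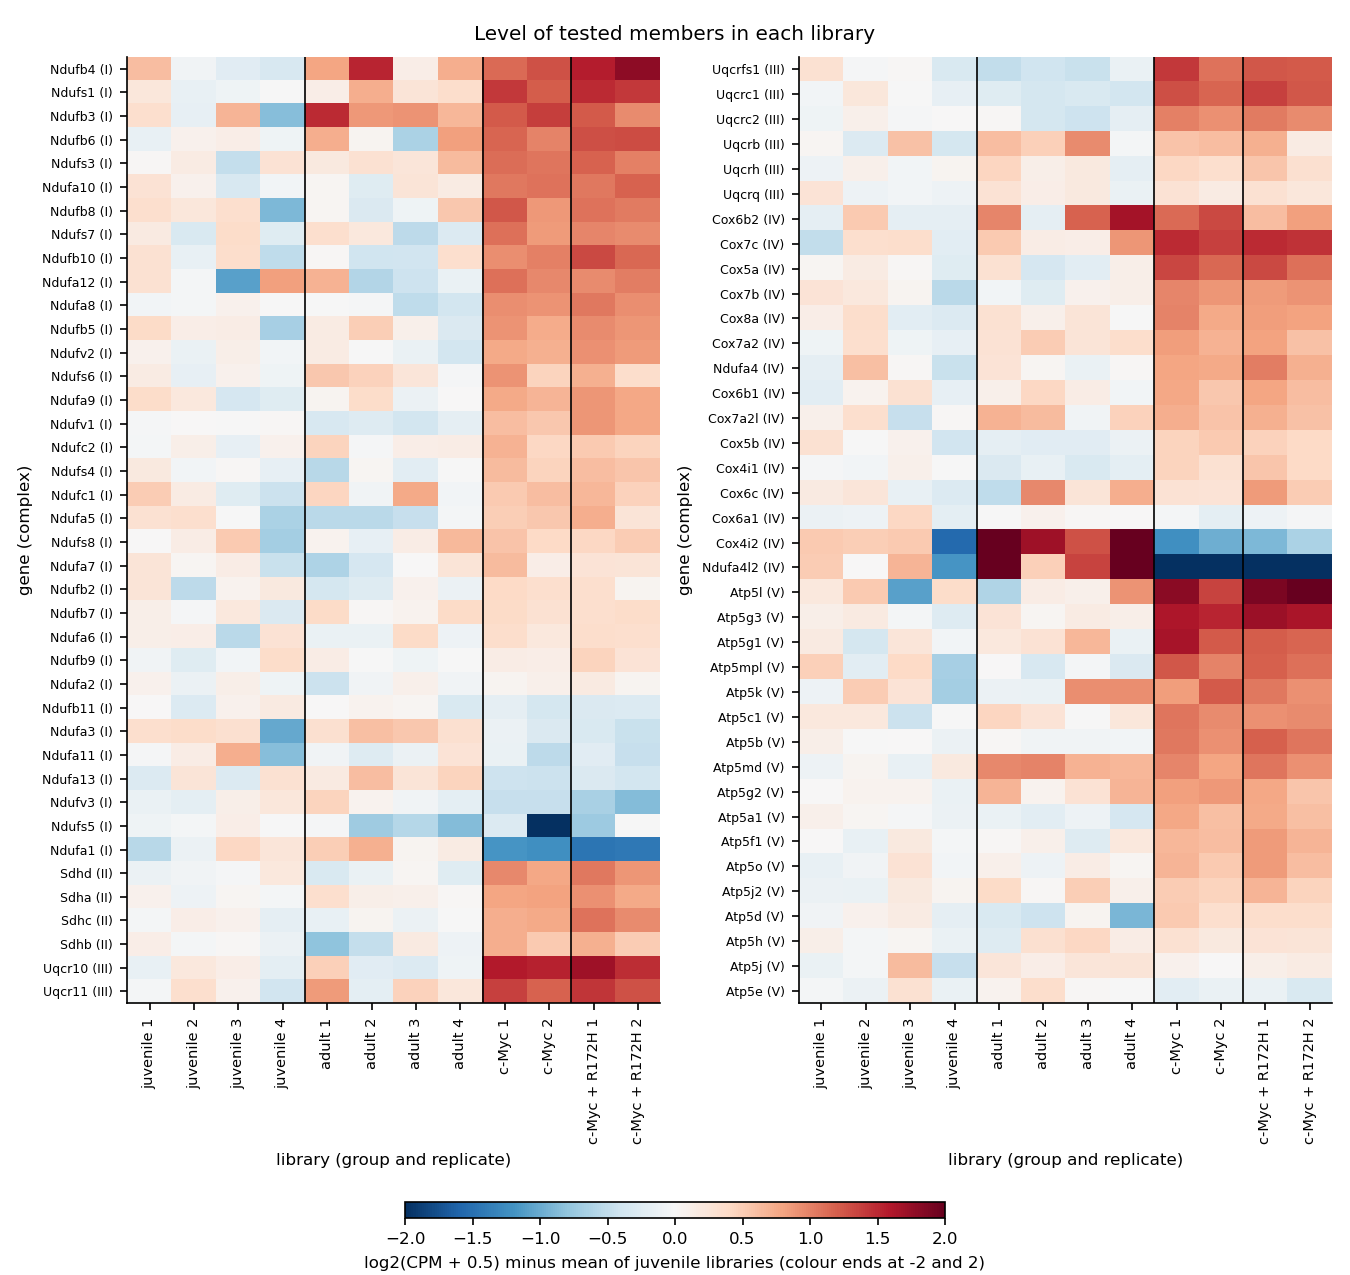
Level of members tested in *c-Myc* against juvenile osteoblasts in each of the 12 libraries, with 1 of the 79 left out, as log2(CPM + 0.5) minus the juvenile mean, grouped by complex; the colour scale ends at -2 and 2. Most rows are higher in the 4 induced libraries than in the 8 others, *Ndufa1* and *Ndufa4l2* are lower there, and *Cox4i2* in juvenile replicate 4 lies below the induced libraries.

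Between juvenile and adult osteoblasts, few subunit genes were called. Of 77 tested members, none was higher and 2 were lower in juvenile cells, both by the same test over 11345 genes, while 1.89% of all tested genes were called higher and 3.23% lower. At an unadjusted p below 0.05 there were 10 members, beside 2234 of all 11345 tested genes. DESeq2 called 0 members higher and 3 lower of 81, beside 311 genes higher and 612 lower of 13744. The median log2 fold change (juvenile over adult) was -0.07 over the members and 0.001 over all tested genes, with 30 members above 0 and 47 below. By complex the medians were -0.01, 0.10, -0.07, -0.16 and -0.16 for complexes I to V. None of the 20 core genes was called, their log2 fold changes ran from -0.39 for *Ndufs1* to 0.38 for *Uqcrfs1*, and 15 of the 20 were above 0. Of the 57 tested members outside the core, 42 were below 0. The sign of the median depended on scaling, at -0.30 with library totals alone (all tested genes -0.24) and 0.08 with totals taken without *Col1a1*, *Col1a2* and *Gm26917* (all tested genes 0.14). The 7 members not tested were *Atp5l* and 6 alternative copies of complex IV.

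The 2 members lower in juvenile cells were *Cox4i2* and *Atp5md*. *Atp5md*, a small subunit of the ATP synthase membrane part (chr19:47083464-47090647, minus strand), was at 5.75, 6.50, 5.56 and 7.20 CPM in juvenile and 12.7, 12.9, 10.3 and 10.1 CPM in adult libraries. These groups did not overlap (log2 fold change -0.89, SE 0.25, adjusted p = 0.045), but leaving out any 1 of the 8 libraries raised the adjusted p to between 0.061 and 0.13. An exon of *Atp5md* overlaps *Taf5* on the other strand. In *c-Myc* libraries *Atp5md* was at 12.7 and 11.2 CPM, within the adult range and above the juvenile range (*c-Myc* over juvenile 0.91, adjusted p = 0.0031, and 0.062 without *c-Myc* replicate 1).

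*Cox4i2* and *Ndufa4l2* are alternative copies in complex IV, the first of subunit 4 and the second a relative of *Ndufa4*, and both are known to be used under low oxygen. *Cox4i2* (chr2:152754173-152765037, plus strand) was at 3.19, 3.09, 3.20 and 0.372 CPM in juvenile, 24.4, 7.78, 5.69 and 10.5 in adult, 0.593 and 0.794 in *c-Myc*, and 0.869 and 1.14 in *c-Myc* + *R172H* libraries. Every adult library was above every juvenile library, with adult replicate 1 well above the other three, and the log2 fold change of juvenile over adult was -2.30 (SE 0.56, adjusted p = 0.036). The adjusted p rose above 0.05 without juvenile replicate 1, 2 or 3 or adult replicate 1 or 4, reaching 0.093 at most. As a share of the *Cox4i1* and *Cox4i2* levels per kb, *Cox4i2* made up 0.642% to 5.31% in juvenile, 10.8% to 33.9% in adult and 0.741% to 1.47% in induced libraries. Against juvenile cells the *c-Myc* libraries were not called for *Cox4i2* (log2 fold change -1.85, SE 0.79, adjusted p = 0.065), and juvenile replicate 4 lay below them.

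*Ndufa4l2* (chr10:127514967-127517154, plus strand, overlapping *Shmt2* on the other strand) was the member with the steepest fall under induction. Its levels were 13.5, 9.39, 15.3 and 3.85 CPM in juvenile, 57.7, 13.3, 24.6 and 54.2 in adult, 1.05 and 0.623 in *c-Myc*, and 0.823 and 0.397 in *c-Myc* + *R172H* libraries. The induced libraries lay below all others, and the log2 fold change of *c-Myc* over juvenile was -3.64 (SE 0.59, adjusted p = 0.00023). The juvenile and adult ranges overlapped, and that difference was not called (log2 fold change -1.84, SE 0.59, adjusted p = 0.13), although without adult replicate 2 it passed (adjusted p = 0.029). *Ndufa4*, by contrast, was at 10.7 to 22.4 CPM in juvenile, 13.3 to 17.7 in adult and 24.3 to 30.4 in induced libraries, and it rose with *c-Myc* (log2 fold change 0.71, adjusted p = 0.024), although the call was lost without juvenile replicate 1 (adjusted p = 0.062) or *c-Myc* replicate 1 or 2 (0.11 and 0.092), and with the replicate block (0.060). Per kb, *Ndufa4l2* therefore made up 31.3% to 57.0% of the pair in juvenile, 52.6% to 82.1% in adult and 2.02% to 4.92% in induced libraries.

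Among markers of other cells, the chondrocyte and pericyte sums were on average highest in adult and lowest in induced libraries, as these 2 copies were. Single markers did not all follow this order, and the haematopoietic sum was lowest in juvenile libraries. The summed CPM of 9 chondrocyte markers was lowest among juvenile libraries in replicate 4 (18335) and highest among adult libraries in replicate 1 (135220), as was *Cox4i2*, and 1 of the 9, *Col2a1*, was called lower in juvenile than in adult cells, while all 9 fell with *c-Myc*. The 4 pericyte markers summed to 275 to 393 CPM in juvenile, 391 to 791 in adult and 154 to 220 in induced libraries, and of the 3 tested none was called with age, while *Abcc9* and *Cspg4* fell and *Rgs5* rose with *c-Myc* (log2 fold changes -1.77, -0.73 and 3.5). *Hif1a*, which encodes the oxygen-regulated transcription factor subunit, was at 75.1 to 95.7 CPM in juvenile, 103 to 144 in adult and 38.3 and 42.5 in *c-Myc* libraries, and was lower in juvenile than adult cells (log2 fold change -0.51, adjusted p = 0.034) and lower still with *c-Myc* (-1.10 over juvenile). The part of these cells or of *Hif1a* in the levels of *Cox4i2* and *Ndufa4l2* was not tested.

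**Figure D4:**
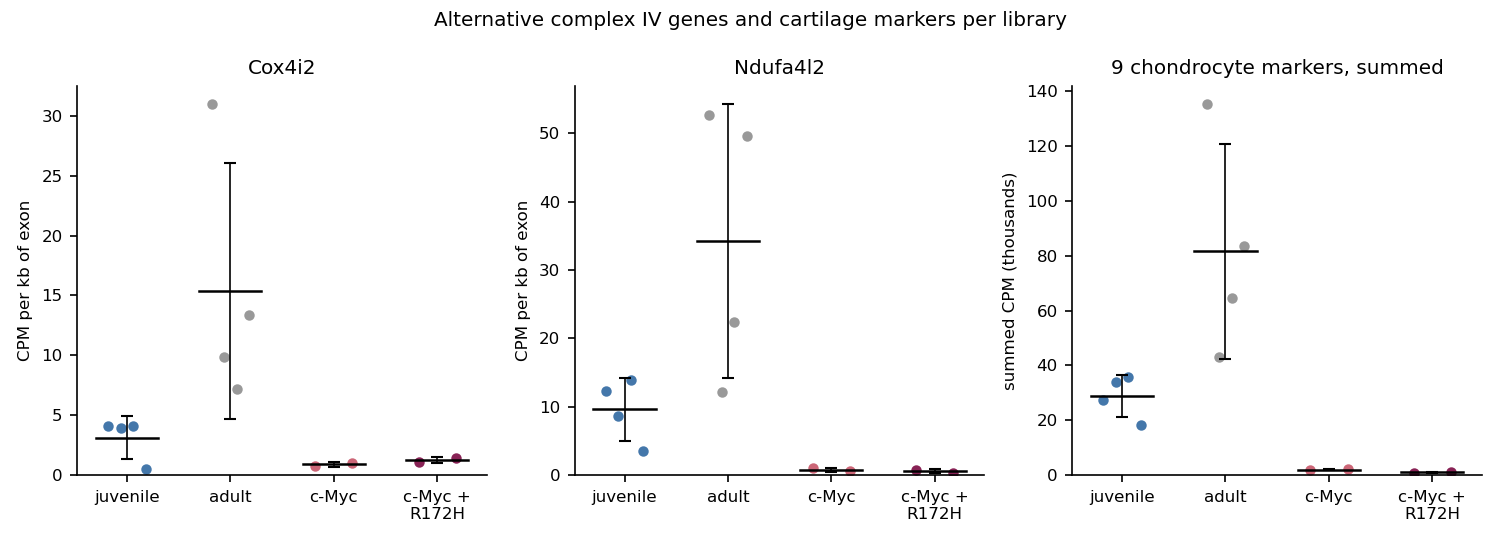
Levels of *Cox4i2* and *Ndufa4l2* (CPM per kb of exon) and summed CPM of 9 chondrocyte markers by group; points are libraries and bars the mean ± SD. *Cox4i2* and *Ndufa4l2* are highest in adult libraries, at up to 31.0 and 52.7 CPM per kb, and at most 1.45 and 0.959 CPM per kb in the induced libraries.

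The remaining alternative copies of complex IV were mostly silent or moved together. The muscle- and testis-type copies *Cox6a2*, *Cox7a1* and *Cox8c* had at most 5, 3 and 2 counts in any library, and *Cox7b2* and *Cox8b* had 0 counts in all 12. *Cox6b2*, known as the testis-type copy of *Cox6b1*, had 0, 3, 0 and 0 counts in juvenile and 16 counts in each *c-Myc* library. It was called higher with *c-Myc* (fitted log2 fold change 3.16, SE 1.21, adjusted p = 0.044), but the call was lost in 12 alternatives, among them DESeq2 (adjusted p = 0.077) and the omission of any library but juvenile replicate 2 (0.054 to 0.21), and without that library the fitted value was 6.65. Per kb it stayed at or below 2.44% of the pair, while *Cox6b1* was at 41.3 to 59.5 CPM per kb in juvenile and 70.1 and 82.6 in *c-Myc* libraries. *Cox7a2* and *Cox7a2l*, of which the second acts in supercomplex assembly, both rose with *c-Myc*, by 0.75 and 0.61 on the log2 scale, although *Cox7a2l* was not called without *c-Myc* replicate 1 or 2 (adjusted p = 0.16 and 0.058).

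Subunit c of the ATP synthase is encoded by 3 genes whose mature proteins are known to be identical, and all 3 rose with *c-Myc*. Per kb, *Atp5g3* made up 62.7% to 69.2% of the 3 in juvenile, 59.7% to 63.6% in adult, 72.0% and 72.8% in *c-Myc*, and 76.2% and 77.1% in *c-Myc* + *R172H* libraries. *Atp5g2* made up 21.2% to 23.7%, 22.5% to 31.2%, 14.5% and 16.3%, and 13.9% and 12.7%. Thus the share of *Atp5g3* was higher and that of *Atp5g2* lower in every induced library than in every other one, a description with no test. These shares rest on merged exon lengths of 4912 bases for *Atp5g1*, 1675 for *Atp5g2* and 2181 for *Atp5g3*, and would differ with other lengths. The log2 fold changes of *c-Myc* over juvenile were 1.55 for *Atp5g3*, 1.44 for *Atp5g1* and 0.85 for *Atp5g2*. Of the 86-base windows of *Atp5g2*, 35.3% also occur in transcripts of other genes, so its counts of uniquely mapped reads are uncertain.

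Promoters were read because members moved together. RefSeq promoters (GRCm38.p6, 250 bases before to 50 after the start) were at hand for 67 of the 84 members. The motifs searched on both strands were CACGTG, the E-box bound by MYC and other factors, the NRF1 motif, a palindrome whose letters are the capitals in the *Atp5g2* sequence, and CCGGAAG, bound by ETS factors such as GABP and read as CTTCCGG on the other strand. CACGTG was in 5 of the 67 member promoters (7.46%), in 8.09% of all 27025 promoters and in 12% of those of genes tested in the *c-Myc* comparison. The NRF1 motif was in 5 (7.46%) against 1.07% and 2.35%, and CCGGAAG in 17 (25.4%) against 9.93% and 20.4%. Among the 44 members with a promoter that rose with *c-Myc*, 4 held CACGTG, 3 the NRF1 motif and 11 CCGGAAG, and among the 20 tested that did not rise the numbers were 1, 2 and 6. The bases before the start of the 3 subunit c genes and of *Ndufs3*, a core subunit of the peripheral arm of complex I with the ETS motif, are shown from 5′ to 3′ in the direction of the gene with the motifs in capitals. All 4 genes rose with *c-Myc*.

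Atp5g1, chr11:96075632-96075881, minus strand: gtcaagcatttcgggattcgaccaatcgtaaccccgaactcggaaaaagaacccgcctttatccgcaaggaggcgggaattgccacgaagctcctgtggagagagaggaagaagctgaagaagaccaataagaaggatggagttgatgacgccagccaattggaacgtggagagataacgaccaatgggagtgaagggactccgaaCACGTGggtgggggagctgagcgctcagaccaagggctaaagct
Atp5g2, chr15:102671048-102671297, minus strand: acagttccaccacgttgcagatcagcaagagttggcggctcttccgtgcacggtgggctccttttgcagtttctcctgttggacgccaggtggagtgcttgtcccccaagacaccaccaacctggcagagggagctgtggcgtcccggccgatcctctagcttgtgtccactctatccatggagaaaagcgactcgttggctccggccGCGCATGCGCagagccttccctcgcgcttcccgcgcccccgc
Atp5g3, chr2:73911327-73911576, minus strand: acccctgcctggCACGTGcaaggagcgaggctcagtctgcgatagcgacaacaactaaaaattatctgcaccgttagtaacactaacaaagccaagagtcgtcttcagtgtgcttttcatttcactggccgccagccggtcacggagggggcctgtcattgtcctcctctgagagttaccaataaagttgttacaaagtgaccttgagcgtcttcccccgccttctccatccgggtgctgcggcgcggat
Ndufs3, chr2:90904722-90904971, minus strand: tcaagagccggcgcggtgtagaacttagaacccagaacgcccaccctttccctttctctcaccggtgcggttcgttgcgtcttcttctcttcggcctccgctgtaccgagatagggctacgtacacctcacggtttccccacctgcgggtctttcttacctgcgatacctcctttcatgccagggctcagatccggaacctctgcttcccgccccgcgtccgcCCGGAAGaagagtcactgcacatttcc

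In *Atp5g1* the motif begins 44 bases before the start, in *Atp5g2* 42, in *Atp5g3* 238 and in *Ndufs3* 27. *Ndufs3* holds CTTCCGG also 2 bases after the start, which is not shown. A match describes letters in this window and not a bound site.

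When mutant p53 was added to *c-Myc*, no subunit gene was called with 2 libraries a group. None of 79 tested members was called higher or lower between *c-Myc* + *R172H* and *c-Myc* osteoblasts (edgeR, adjusted p below 0.05), while 0.00794% of all tested genes were called higher and 0.461% lower. DESeq2 called 0 members, beside 6 genes higher and 176 lower of 11206. By edgeR, 3 members had an unadjusted p below 0.05, beside 589 of all 12588 tested genes. Among the 3 were *Ndufv1* and *Sdhc*, with log2 fold changes of 0.28 and 0.30 and adjusted p of 0.80 and 0.97. A fit of these 2 groups alone called 3 members higher and 0 lower, with 1.55% of all tested genes called higher and 3.62% lower in it. The median log2 fold change was 0.06 over the members and -0.003 over all tested genes, and 56 members were above 0 and 23 below. Without *c-Myc* replicate 2, 36 members were above 0 and 43 below, with medians of -0.011 and, over all tested genes, -0.035. Without *c-Myc* + *R172H* replicate 1, 35 were above and 44 below, with medians of -0.0099 and -0.040. With all libraries, the range ran from -0.88 for *Cox6b2* to 0.85 for *Ndufs5*. *Ndufs5* had 2 counts in *c-Myc* replicate 2 and a log2 fold change of -0.065 without it and 3.87 without *c-Myc* replicate 1. *Atp5b*, for example, was at 906 and 837 CPM in *c-Myc* + *R172H* against 829 and 752 CPM in *c-Myc* libraries, narrowly without overlap and not called (log2 fold change 0.17, SE 0.10). *Ndufa4l2* was at 0.823 and 0.397 against 1.05 and 0.623 CPM (log2 fold change -0.43).

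Set against juvenile cells, the *c-Myc* + *R172H* libraries gave 51 members higher and 3 lower of 79, with 30.4% of all tested genes called higher and 26.3% lower. This comparison shares its 4 juvenile libraries with that of *c-Myc*, so the values are only set side by side. The median was 0.74 over the members and 0.08 over all tested genes. All 4 genes of complex II, 6 of 8 of complex III, 10 of 15 tested of complex IV and 14 of 17 of complex V were higher, and in complex I 17 of 35 were higher and 2 lower. *Atp5g3* had a log2 fold change of 1.67, *Ndufs1* of 1.46, *Uqcr10* of 1.62, *Cox7c* of 1.48 and *Sdhc* of 1.03. The members called lower were *Ndufa4l2* (-4.07, adjusted p = 0.00011), *Ndufa1* (-1.60, adjusted p = 0.0011, but -0.53 and 0.14 with library totals alone) and *Ndufv3*, a small flavoprotein-arm subunit (-0.79, adjusted p = 0.0085). *Ndufv3* was at 11.8, 11.2, 14.2 and 15.3 CPM in juvenile and 8.14 and 6.95 CPM in *c-Myc* + *R172H* libraries, without overlap. With library totals alone its log2 fold change was 0.27, and without *c-Myc* + *R172H* replicate 2 its adjusted p was 0.10. The number of members called lower was 6 without juvenile replicate 4, beside 3476 of 12562 tested genes.

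Among subunits encoded by mtDNA, 4 fell and 1 rose with *c-Myc* on the TMM scale. Of the 13 protein-coding mtDNA genes, *mt-Co2*, *mt-Co3*, *mt-Atp6* and *mt-Atp8* were at 0 counts in all 12 libraries and *mt-Nd3* and *mt-Nd4l* had at most 6 counts in any, so 7 were tested. The summed mtDNA-encoded level was 1214, 1210, 1209 and 1074 CPM in juvenile, 1541, 2144, 2132 and 1386 in adult, 772 and 1078 in *c-Myc*, and 818 and 916 in *c-Myc* + *R172H* libraries. The adult libraries lay above the juvenile ones without overlap, and a *c-Myc* library, at 1078 CPM, fell within the juvenile range. With age, 4 of 7 mtDNA genes were lower in juvenile cells, with *mt-Nd2* at 45.4 to 59.7 CPM in juvenile and 91.7 to 153 CPM in adult libraries (log2 fold change -1.11, SE 0.15, adjusted p = 0.00073) and a median of -0.59. Of all tested genes, 3.23% were called lower and 1.89% higher with age. All 7 mtDNA genes were below 0 under every scaling tried, and 2 to 6 of them were called. With *c-Myc*, *mt-Cytb*, *mt-Nd1*, *mt-Nd4* and *mt-Nd5* fell and *mt-Nd6*, which is transcribed in the opposite direction to the others, rose (log2 fold change 1.13, SE 0.22, adjusted p = 0.00090), with a median of -0.68. On the TMM scale 28.4% of all tested genes were called higher and 25.0% lower. The direction of the mtDNA genes depended on scaling, since with library totals alone 3 rose, none fell and the median was 0.14. Under that scaling 54.0% of all tested genes were called higher and 8.87% lower. Between *c-Myc* + *R172H* and *c-Myc* osteoblasts none of the 7 was called by edgeR, 0 had an unadjusted p below 0.05, and the median was -0.06.

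The ratio of nuclear member counts to mtDNA-encoded counts does not depend on scaling. It was 2.06, 2.02, 2.06 and 2.05 in juvenile, 1.64, 1.12, 1.12 and 1.72 in adult, 5.49 and 3.58 in *c-Myc*, and 5.39 and 4.45 in *c-Myc* + *R172H* libraries. The 4 juvenile values were nearly equal, all adult values were lower and all induced values higher. The mtDNA part of the ratio rests almost wholly on the 7 tested genes. The other 6 had 0 or few counts, for a reason that was not tested. These ratios are a description with no test.

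**Figure D5:**
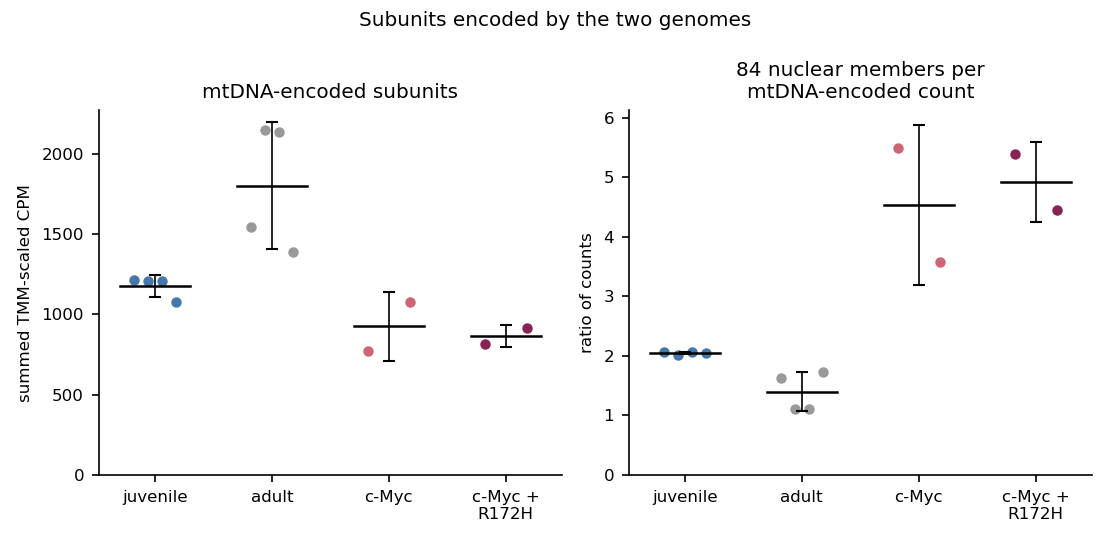
Left, summed TMM-scaled CPM of the mtDNA-encoded subunit genes; right, counts of the 84 nuclear members per mtDNA-encoded count. Points are libraries and bars the mean ± SD; the ratio lies between 2.02 and 2.06 in juvenile, 1.12 and 1.72 in adult and 3.58 and 5.49 in the induced libraries.

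Genes around the complexes were counted from 4 lists. Of all tested genes, 28.4% were called higher and 25.0% lower with *c-Myc*, with a median log2 fold change of 0.04. Assembly factors, which build the complexes without staying in them, had 23 of 46 tested genes higher and 1 lower with *c-Myc*, with a median log2 fold change of 1.06. *Ndufaf4*, a complex I factor, was at 2.61 to 4.17 CPM in juvenile and 15.8 and 17.8 CPM in *c-Myc* libraries (log2 fold change 2.23), and *Cox10*, which makes heme for complex IV, at 1.24 to 5.88 and 21.6 and 20.1 CPM (2.43). *Sdhaf1*, a complex II factor, was the 1 that fell (-0.88, adjusted p = 0.040). Among electron carriers, ubiquinone synthesis genes and subunits outside the pattern, 12 of 20 rose and none fell, with a median of 0.91, and *Cycs*, cytochrome *c*, was at 2.86 to 5.11 CPM in juvenile and 22.8 and 18.2 CPM in *c-Myc* libraries (2.47).

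In the tricarboxylic acid cycle, which feeds the complexes, 13 of 17 genes rose with *c-Myc* and none fell, with a median of 0.81. *Idh3a* was at 14.7 to 22.8 CPM in juvenile and 86.3 and 78.5 CPM in *c-Myc* libraries (log2 fold change 2.17), and *Dlat*, of pyruvate dehydrogenase, at 21.6 to 26.9 and 102 and 93.1 CPM (1.99). Of 18 regulators and factors of mitochondrial transcription, 9 rose, among them the coactivator *Ppargc1b* (2.55), the mtDNA polymerase subunits and helicase *Polg* and *Twnk* (0.48 and 1.41), the RNA polymerase *Polrmt* (1.25) and *Tfam* (1.29), and *Hif1a* was the 1 that fell. With age, 1 gene of the cycle, *Idh2*, was higher in juvenile cells (0.56, adjusted p = 0.021), *Hif1a* was lower, and none of the 43 assembly factors or 20 carrier genes tested was called. In that comparison 1.89% of all tested genes were called higher and 3.23% lower. None of the genes in these 4 lists was called between *c-Myc* + *R172H* and *c-Myc* osteoblasts by edgeR, and 1, in the cycle, had an unadjusted p below 0.05. Against juvenile cells the *c-Myc* + *R172H* libraries gave 22 higher and 1 lower, 14 and 0, 14 and 1, and 10 and 1 in these lists. The shares of all tested genes were 30.4% higher and 26.3% lower. Beside these groups, 4 of 4 proliferation markers rose with *c-Myc*, from 75.2 to 103 summed CPM in juvenile libraries to 434 and 457 CPM, and all 9 osteoblast markers fell. The part of cell division and of the loss of osteoblast genes in the level of the subunit genes was not tested.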

How the data were processed

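The authors trimmed 86-base single-end reads (cutadapt 4.6), mapped them to mm10 (STAR 2.7.11a), counted those with a unique position by gene (HTSeq 2.0.5), and deposited raw counts for the 12 libraries with no scaling. Alignment and counting used different GENCODE releases. Positions, exon overlaps and lengths came from a GENCODE annotation of GRCm38, and promoters from RefSeq. Groups follow the titles. Reads carry no molecular identifiers.

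Counts were tested in R 4.3.3 with edgeR 4.0.16 (TMM, default expression filter, robust quasi-likelihood F test, two-sided, Benjamini-Hochberg over all tested genes). The age comparison used its 8 libraries, and the others shared 1 fit of the 8 juvenile and induced libraries, so groups of 2 borrow the spread of the others. Each SE was the size of the log2 fold change over the root of its F value. Sums, shares, ratios and medians were not tested. Shared sequence was searched in 86-base windows of transcripts, and in 14 members over 10% of the windows also occurred in other genes.

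The members, the lists and the named genes were chosen with earlier results of these data known. Named were, per complex, the called member with the largest rise and fall (groups not overlapping, mean of at least 10 normalized counts), 20 core genes, alternative copies and members called against most of their complex. Values of 1 core gene are not reported here. The other members with values, and the genes named from other lists, were chosen after their values were seen. Alternatives were RLE, upper quartile, library totals with and without 3 genes, 2 other filters, DESeq2 1.42.0, other library sets, a replicate block, a stricter call, a trend correction and each library left out. On simulated data, 62.8% of 196 genes changed by a log2 of 1 were called in the age design (11079 genes) and 53.6% of 194 in the *c-Myc* design (12288 genes), with 6 of 10883 and 5 of 12094 unchanged genes also called. In the real *c-Myc* comparison 28.4% of tested genes were called higher and 25.0% lower, far more than were changed in the simulation. The simulated rates therefore need not hold for that comparison. Replicates differed by more than counting noise (chi-square per degree of freedom 5.45 to 136).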

Additional observations from a re-analysis of the deposited data

Results flagged for a closer look

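In 5 of 87 sets of 4 libraries, 1 library stood far from the other three of its group, with its gap to the nearest exceeding Dixon's critical value. Chance gives about 1 in 20 such sets. *Cox4i2* was at 0.372 CPM in juvenile replicate 4. *Cox7a2* was at 20.3 CPM in juvenile replicate 2. *Atp5b* was at 403 CPM in adult replicate 1, and the summed level of all members at 2523 CPM in the same library. The summed level of the mtDNA-encoded subunits was 1074 CPM in juvenile replicate 4. Juvenile replicate 4 also had the lowest *Ndufa4l2* level, 3.85 CPM, and the lowest chondrocyte marker sum, 18335 CPM, of the juvenile libraries.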

How the results depend on the processing

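The choice of scaling moved the level of every comparison. With library totals alone, median log2 fold changes of all members and complexes I to V were -0.30, -0.27, -0.14, -0.30, -0.39 and -0.40 for juvenile over adult, 1.48, 1.37, 1.58, 1.90, 1.48 and 1.68 for *c-Myc* over juvenile, 1.79, 1.61, 1.96, 2.15, 1.74 and 1.82 for *c-Myc* + *R172H* over juvenile, and 0.27, 0.24, 0.31, 0.27, 0.24 and 0.26 for *c-Myc* + *R172H* over *c-Myc*. With 3 genes left out of the totals they were 0.97, 0.85, 1.06, 1.38, 0.95 and 1.16 for *c-Myc* over juvenile and 1.08, 0.90, 1.25, 1.45, 1.04 and 1.11 for *c-Myc* + *R172H* over juvenile, and with age 0.076 over all members, 0.24 for complex II and 0.088 for complex III. With the length and expression trend removed they were 0.37, 0.24, 0.53, 0.66, 0.16 and 0.58 for *c-Myc*, and 0.45, 0.25, 0.74, 0.76 and 0.30 over all members and complexes I to IV for *c-Myc* + *R172H*, both over juvenile, and 0.13 for complex V between the induced groups. The complex II median of *c-Myc* over juvenile was 0.68 with upper quartile scaling and 0.81 without a filter.

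Members called lower with age numbered 1 without a filter, with 10 counts in every library, with the replicate block, with an absolute log2 of at least 1, and with 3 genes out of the totals, where 1 was also higher. With *c-Myc* over juvenile the lower calls numbered 4 with upper quartile, 1 with library totals, 1 with 10 counts in every library and 5 with the replicate block, and with *c-Myc* + *R172H* over juvenile 1 with library totals and 5 with the replicate block. Requiring an absolute log2 of at least 1 left 18 and 23 higher calls in these comparisons. The fit of the 2 induced groups alone gave 3 higher calls. Same-number correlations between libraries of different groups ran from -0.09 to 0.16. Between the induced groups they were 0.16 for same and -0.16 for other numbers. With 2 libraries a group these values mirror each other and cannot show whether numbers pair libraries. Column names of adult libraries also carry other numbers than their titles. Between the induced groups the block gave 30 genes higher and 296 lower, against 1 and 58 without it.

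Leaving out 1 library gave 0 to 2 lower calls with age, 32 to 53 higher and 2 to 5 lower with *c-Myc*, and 2 to 6 lower with *c-Myc* + *R172H* over juvenile. Medians then ranged from -0.12 to 0.074 for complex III with age, 0.98 to 1.12 for complex III with *c-Myc*, and 0.81 to 0.96 for complex II with *c-Myc* + *R172H* over juvenile. Between the induced groups they ranged from -0.00087 to 0.15 for complex II and -0.011 to 0.13 for complex V.

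Signs turned for members that were not called with *c-Myc*: with library totals *Ndufv3* was at 0.33, *Ndufa13* at 0.36, *Cox6a1* at 0.69, *Atp5e* at 0.63 and *Atp5j* at 0.81, and with 3 genes out *Cox6a1* at 0.15, *Atp5e* at 0.10 and *Atp5j* at 0.28. *Atp5j* was also at 0.026 without a filter, 0.10 with the replicate block and -0.17 to 0.21 with 1 library left out. *Ndufs5* between the induced groups ran from -0.065 to 3.87 with 1 library left out, and *Ndufv3* over juvenile was at 0.27 with library totals in *c-Myc* + *R172H* cells. The cause was not tested. Of the values of named members under alternatives, 1190 kept direction and side of the threshold, 60 lost a call, 33 gained 1 and 14 changed sign. Precision is limited by 2 libraries a group and, for *Cox6b2*, *Atp5l* and *Ndufs5*, by few counts.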
